A study of Mus musculus with 18 samples.

Results

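The cell libraries of primary mouse microglia were compared gene by gene with those of primary mouse neurons. The study measured polyadenylated RNA in 18 libraries from primary brain cultures, covering astrocytes, microglia and neurons and the small extracellular vesicles (sEVs) of each, and asked how each cell type packages mRNA into its sEVs. The comparison described here used 6 of the 18 libraries, chosen by their labels: replicates 1, 2 and 3 of microglia cells and replicates 1, 2 and 3 of neuron cells. Both groups are untransformed mouse brain cells in primary culture, with no strain, age, genotype or treatment named in the labels. Nothing in the labels says that the replicates are separate cultures, so every p-value measures the spread between these libraries, which may be technical.

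Microglia are the resident macrophages of the brain. They arise outside the nervous system, depend on signalling through the receptor Csf1r, survey tissue with receptors for damage and microbes, take up debris and synapses, and release cytokines, chemokines and complement. Neurons carry voltage-gated channels, package transmitters into synaptic vesicles that fuse at the terminal, receive them through glutamate and GABA receptors, and hold a tubulin-rich cytoskeleton in their axons and dendrites. Primary microglia and neurons differ in lineage as well as function, and cultures of either can hold cells of other brain types.

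The deposited values are normalized counts, not divided by gene length, so levels were compared between libraries and not between genes. A gene was tested when its value reached 10 in at least 3 of the 6 libraries, which left 17237 of 54307 genes. Differences are microglia minus neuron on the log2(value + 1) scale, which understates the change of low genes, and a gene was called when its limma p, adjusted by Benjamini-Hochberg over all genes tested, was under 0.05. Of the genes tested, 12507 were called, or 72.6%, with 3636 higher in microglia (21.1%) and 8871 higher in neurons (51.5%). The microglia and neuron libraries did not overlap for 13329 genes (77.3%). Neuron values were listed at 0 in all 3 libraries for 443 of the genes called higher in microglia, and microglia values for 2122 of those called higher in neurons. A gene listed at 0 throughout a group could pass the filter only by reaching 10 in all 3 libraries of the other. Its lack of overlap was thus fixed by the filter, and every such gene tested was called. The adjusted p of such a gene is therefore given as a description. For such genes the values are given and no fold is stated. Where the lower group held small values beside zeros, the log2 difference and its SE also depend on the pseudocount. For Arc, a gene described below, the difference was -6.37 with a pseudocount of 1 and -4.06 with 10. Medians over a gene list include members of both kinds. The median with a pseudocount of 10 in place of 1 is therefore given beside a list's median where it differs by over 1.

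The scale of the libraries differed between the groups. Summed normalized counts were 65071835 to 69276566 in the microglia libraries and 41683285 to 43638426 in the neuron libraries, and 13494 to 13804 genes reached 10 in microglia against 17063 to 18131 in neurons. The median log2 difference over all genes tested was -1.16. Scaling every library to the same total moved this median by -0.65 and quantile normalization moved it by 1.15. The share of calls that were higher in microglia was 29.1% as deposited, 19.4% with equal totals (2641 higher in microglia and 10998 in neurons) and 50.1% with quantile normalization (5573 and 5548). Of the genes named here, Pdia3 and Hspa8 changed direction under either scaling, and both values are given where they are described. Read totals per library are not recoverable from normalized values, so the depth is unknown. Within each group the libraries correlated at 0.936 to 0.951 over the genes tested on the log2 scale.

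**Figure D1:**
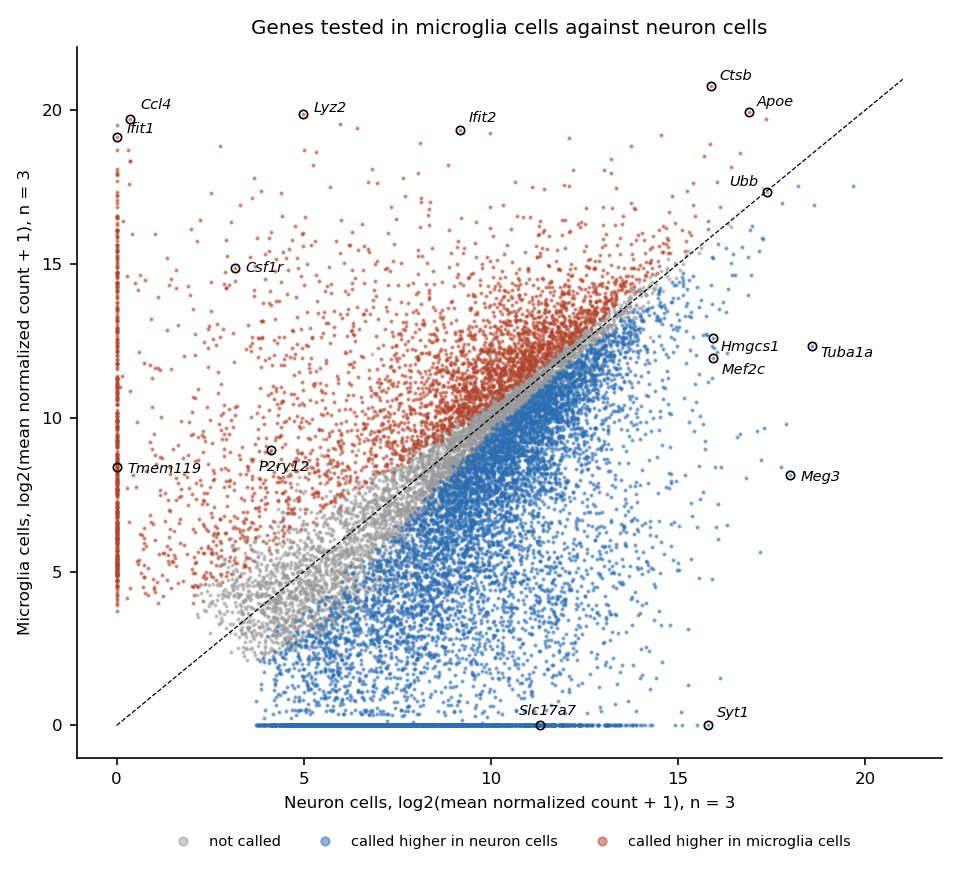
Each point is a gene tested, with log2(mean normalized count + 1) of the 3 neuron libraries on the x axis and of the 3 microglia libraries on the y axis, coloured by its limma call, and the dashed line marks equal values. The 8871 genes called higher in neurons spread down to the row where microglia are listed at 0, and the 3636 called higher in microglia rise to the left, with Ifit1 and Tmem119 in the column where neurons are listed at 0.

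Microglia-defining genes separated the libraries as labelled. Of the 29 microglia identity genes tested, 27 were called higher in microglia and 1 higher in neurons, against 21.1% and 51.5% of all genes tested. Their median log2 difference was 12.88 (10.36 with a pseudocount of 10). Csf1r, the receptor that microglia need to survive, read 29684, 30940.1 and 29979 in the microglia libraries and 21.8, 0 and 1.83 in the neuron libraries (log2 difference 12.88 ± 1.09 (SE), limma adjusted p = 9.4e-05). Aif1, which encodes the calcium-binding protein Iba1, read 7129, 5590.2 and 6401 in microglia and 15.8, 0 and 18.2 in neurons (log2 difference 9.85 ± 1.16 (SE), limma adjusted p = 4.1e-04). Cx3cr1, the receptor for the neuronal chemokine fractalkine, read 939, 1591 and 1627 in microglia and was listed at 0 in all 3 neuron libraries (limma adjusted p = 5.3e-06). Each of these genes was high in every microglia library and read at most 21.8 in every neuron library. Lyz2, the macrophage lysozyme, read 915789, 970797 and 972281 in microglia against 23.2, 51.1 and 17.2 in neurons (log2 difference 15.03 ± 0.38 (SE), limma adjusted p = 1.4e-06).

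The genes most tied to microglia in the healthy brain followed the same direction. P2ry12, the ADP receptor that guides process movement, read 355, 531 and 597 in microglia and 15.2, 0 and 34.2 in neurons (log2 difference 5.87 ± 1.33 (SE), limma adjusted p = 0.0076). Tmem119, a membrane protein used to tell microglia from other macrophages, read 135, 453 and 431 in microglia and was listed at 0 in all neuron libraries (limma adjusted p = 4.0e-05). For P2ry12, Tmem119 and Cx3cr1 the lowest microglia library was replicate 1, and the groups still did not overlap. Slc2a5, a fructose transporter of microglia, went the other way: it was listed at 0 in all 3 microglia libraries and read 58.9, 242 and 97.6 in neurons (limma adjusted p = 9.0e-05). Olfml3, another gene of this list, was named after its values were seen: it read 151, 155 and 564 in microglia and 286, 175 and 202 in neurons and was not called (log2 difference 0.13 ± 0.59 (SE), limma adjusted p = 0.85), while after quantile normalization its difference was 1.95 and was called.

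Border macrophage genes, which mark the macrophages of meninges and vessels, were present in the microglia libraries too. Of 10 tested, 9 were called higher in microglia, against 21.1% of all genes tested. The summed values of the list made 0.176 to 0.190% of each microglia library against 0.000191 to 0.000490% of each neuron library. Ms4a7 read 74875, 80872 and 81938 in microglia and was listed at 0 in neurons (limma adjusted p = 2.6e-07). Mrc1, the mannose receptor, read 19731, 22392 and 18485 in microglia and 2.31, 0 and 91.2 in neurons (log2 difference 11.55 ± 1.60 (SE), limma adjusted p = 8.7e-04). Microglia and border macrophages share many genes, and which cells these values came from was not tested.

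Neuron-defining genes gave the reverse picture. All 30 neuron identity genes were tested and called higher in neurons, against 51.5% of all genes tested. Their median was -10.21 (-9.14 with a pseudocount of 10). Map2, the dendritic microtubule-associated protein, read 35904, 27998 and 33191 in neurons and 0, 96.4 and 0 in microglia (log2 difference -12.77, limma adjusted p = 9.4e-04). Tubb3, the neuronal beta-tubulin, read 30759, 30390.4 and 28717 in neurons and 50.4, 25.8 and 45.4 in microglia (log2 difference -9.55 ± 0.27 (SE), limma adjusted p = 2.1e-06). Rbfox3, the splicing factor known as NeuN, read 3571, 6675 and 2695 in neurons and 0, 0 and 3.32 in microglia (log2 difference -11.26 ± 0.73 (SE), limma adjusted p = 2.9e-05). The microglia libraries thus held traces of some neuronal genes, in different libraries for different genes. Ncam1, a neural adhesion molecule, read 65.6, 419.8 and 707 in microglia against 156168, 156050.5 and 147442 in neurons (log2 difference -9.14 ± 0.84 (SE), limma adjusted p = 1.3e-04). The 30 neuron identity genes together made 2.41 to 2.51% of each neuron library and 0.00323 to 0.00511% of each microglia library, while the microglia identity genes made 4.01 to 4.28% of each microglia library and 0.0145 to 0.0151% of each neuron library.

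**Figure D2:**
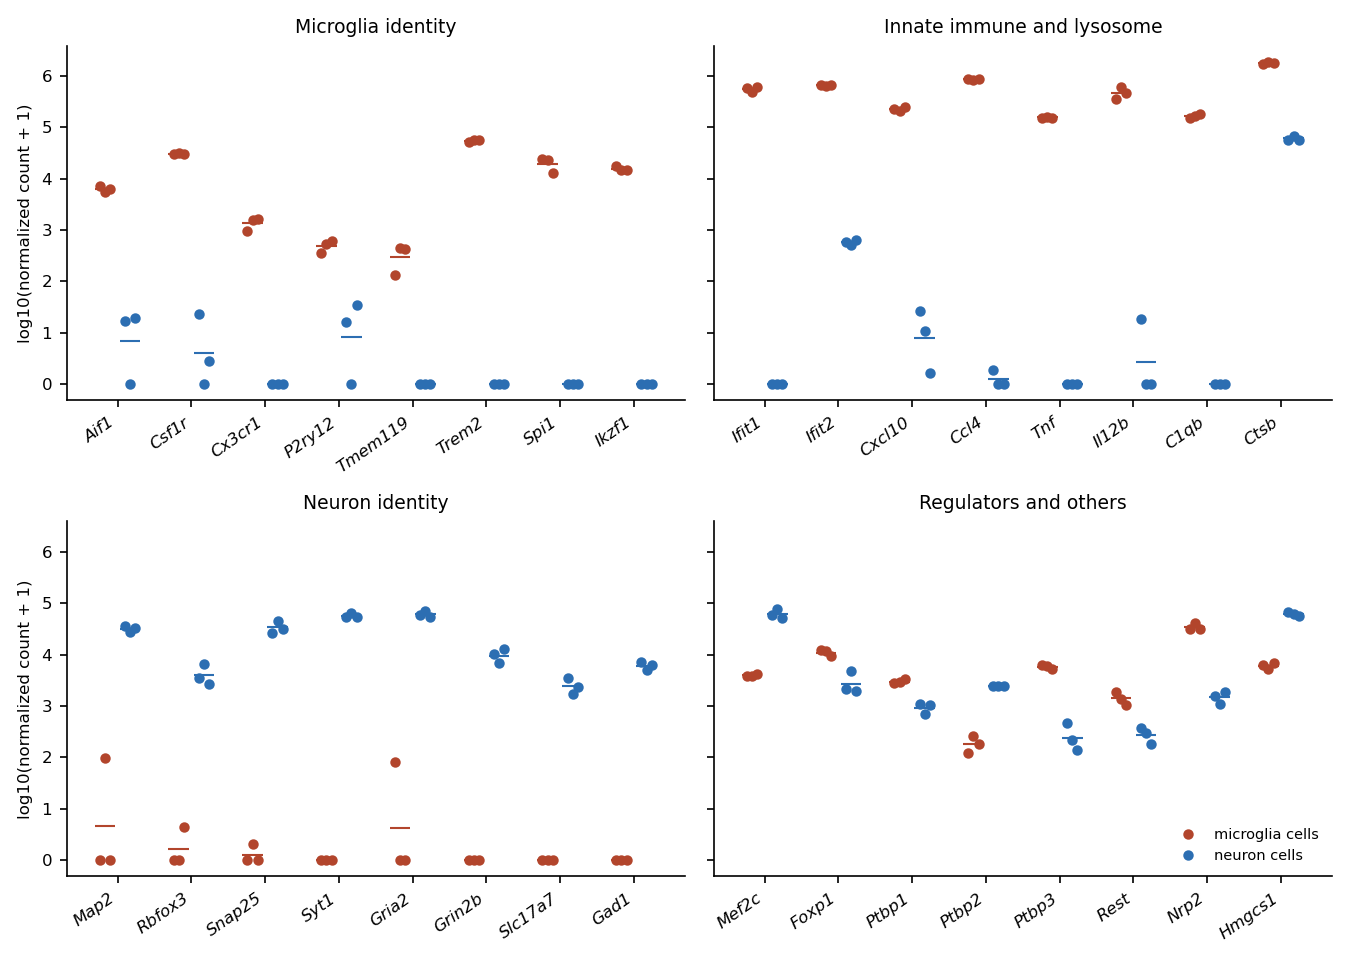
Points are the 3 microglia and 3 neuron libraries, with log10(normalized count + 1) on the y axis and a bar at the mean of the plotted values. Identity genes of either type sit low or at 0 in the other type, and Ctsb and Nrp2 are present in both.

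Markers of other brain cells were uneven between the groups. Against 51.5% of all genes tested, 19 of 20 astrocyte markers were called higher in neurons, and 1, Apoe, was higher in microglia. Without Apoe they summed to 0.559 to 0.638% of each neuron library, 0.00881 to 0.0290% of each microglia library and 3.73 to 4.51% of each astrocyte cell library of the same study. Gfap, the astrocyte filament protein, read 37706, 42356 and 33362 in neurons and 8402, 870.3 and 1347 in microglia, with replicate 1 the highest of the microglia libraries (log2 difference -4.13 ± 0.82 (SE), limma adjusted p = 0.0043). Aqp4, the astrocyte water channel, read 4792, 3689 and 7555 in neurons and 1183, 275 and 64.4 in microglia, again with replicate 1 highest (log2 difference -4.20 ± 1.02 (SE)). Apoe, the main lipid carrier of the brain, was high in both groups: 925269, 963585 and 1115054 in microglia against 108416, 108206 and 147982 in neurons (log2 difference 3.05 ± 0.15 (SE), limma adjusted p = 9.2e-06). In bulk RNA, fewer cells of a type and less RNA per cell cannot be told apart, and the part of astrocytes in the genes higher in neuron libraries was not tested.

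Oligodendrocyte lineage markers were also higher in the neuron libraries, at 14 of 16 tested against 51.5% of all genes tested. The markers summed to 0.0975 to 0.303% of each neuron library against 0.00738 to 0.00863% of each microglia library. Mbp, a major myelin protein, read 12276, 5043 and 31269 in neurons, lowest in replicate 2, and 283, 213 and 173 in microglia (log2 difference -5.83 ± 0.65 (SE), limma adjusted p = 3.1e-04). Pdgfra, the receptor of oligodendrocyte precursors, read 8360.5, 7741 and 10236 in neurons and 243, 199.95 and 103 in microglia (log2 difference -5.66 ± 0.34 (SE), limma adjusted p = 2.0e-05). Of 13 neural progenitor markers, 7 were higher in neurons and 2 in microglia, near the shares over all genes tested (51.5% and 21.1%). Fabp7, a radial glial fatty acid-binding protein, read 16784, 18147 and 15389 in neurons against 509, 162 and 274 in microglia (log2 difference -5.88 ± 0.40 (SE), limma adjusted p = 3.5e-05), while Vim, an intermediate filament of glia and immune cells, read 18607, 19284 and 20099 in microglia against 3482, 1679.7 and 3919 in neurons (log2 difference 2.77 ± 0.32 (SE), limma adjusted p = 3.8e-04).

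Fibroblast and meningeal markers set microglia replicate 1 apart from the others. Col1a1, the main fibroblast collagen, read 41.5, 1752 and 1843 in microglia and 203, 76.3 and 128 in neurons and was not called (log2 difference 2.02 ± 1.51 (SE), limma adjusted p = 0.27). Without microglia replicate 1 its difference was 3.83 ± 0.46 (SE, limma adjusted p = 0.0012). Of 18 such markers tested, 3 were called higher in microglia and 3 higher in neurons, with a median of 1.24. Over all genes tested the shares were 21.1% and 51.5%. Without microglia replicate 1, 11 were called higher in microglia and the median was 3.06, and without microglia replicate 3 the median was 0.16. The list summed to 0.0257 to 0.0597% of the microglia libraries and 0.0464 to 0.0966% of the neuron libraries. Postn, a secreted matrix protein, was high in all 3 microglia libraries, at 12495, 13711 and 11021 against 90.5, 135 and 30.6 (log2 difference 7.40 ± 0.53 (SE), limma adjusted p = 4.4e-05). Ttr, which the choroid plexus makes in large amounts, read 1823, 11701 and 7168 in microglia and 24.8, 85.0 and 23.1 in neurons, with replicate 1 again lowest in microglia (log2 difference 7.15 ± 0.83 (SE), limma adjusted p = 3.9e-04). Of the 10 endothelial and mural markers tested, 4 were higher in microglia and 2 in neurons, against the same shares over all genes. Their median of -0.43 turned to 0.96 with quantile normalization and changed sign without microglia replicate 1. Flt1, a receptor for vascular endothelial growth factor, read 948, 1037 and 384 in microglia and 5.63, 31.7 and 0.529 in neurons (log2 difference 6.71 ± 1.15 (SE), limma adjusted p = 0.0023). Of 22 lymphoid, granulocyte and mast cell markers only Cd4 and Kit could be tested. Cd4, the co-receptor of helper T cells, read 47.0, 338 and 561 in microglia and 0, 20.7 and 0 in neurons (log2 difference 6.23 ± 1.53 (SE), limma adjusted p = 0.011). Kit, the receptor for stem cell factor, was listed at 0 in microglia and read 3522, 2737 and 3765 in neurons (limma adjusted p = 2.9e-06).

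**Figure D3:**
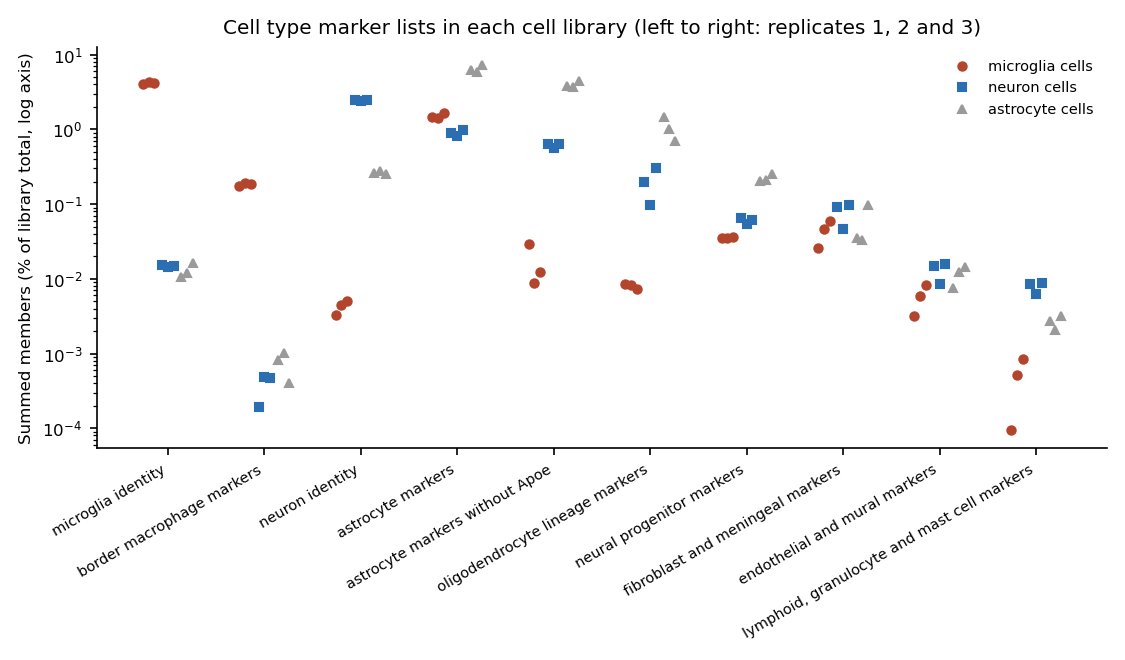
Summed values of each cell type marker list are given as a percent of the library total on a log axis, for 3 microglia, 3 neuron and 3 astrocyte cell libraries. Neuron libraries sit between microglia and astrocyte libraries for the astrocyte markers without Apoe and for the oligodendrocyte lineage markers, and microglia replicate 1 is the lowest microglia library for fibroblast and meningeal markers.

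Transcription factors of the myeloid lineage were mostly higher in microglia, at 14 of 19 tested against 21.1% of all genes tested. In neurons 2 were higher, and the median was 5.85 (4.43 with a pseudocount of 10). Spi1, which encodes the lineage-determining factor PU.1, read 24624, 22807 and 12973 in microglia and was listed at 0 in neurons (limma adjusted p = 1.6e-06). Irf8, an interferon regulatory factor that microglia need to develop, read 101173, 88962 and 91992 in microglia and 43.8, 0 and 51.3 in neurons (log2 difference 12.79 ± 1.52 (SE), limma adjusted p = 4.3e-04). Ikzf1, a zinc finger factor of blood cells, read 17628, 14709.7 and 14734 in microglia and was listed at 0 in neurons (limma adjusted p = 8.5e-07). Mef2c, a factor shared by microglia and excitatory neurons, went the other way at 3842, 3869.99 and 4138 in microglia against 59611, 75672 and 52327 in neurons (log2 difference -3.97 ± 0.14 (SE), limma adjusted p = 4.0e-06). Bhlhe41 was likewise higher in neurons, at 912, 549 and 462 against 214, 206 and 149.7 (log2 difference -1.71 ± 0.34 (SE), limma adjusted p = 0.0044), a call that was lost after quantile normalization (-0.29).

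Interferon-stimulated genes were called higher in microglia at all 40 members tested, against 21.1% of all genes tested, with a median log2 difference of 11.00. Type I interferon acts through its receptor on a transcription factor complex that binds interferon-stimulated response elements. Ifit1, which binds foreign RNA caps, read 581785, 496269.9 and 622272 in microglia and was listed at 0 in all 3 neuron libraries (limma adjusted p = 1.2e-07). Ifit2, of the same family, read 671577, 641667 and 676962 in microglia and 581, 521 and 635 in neurons (log2 difference 10.16 ± 0.09 (SE), limma adjusted p = 1.2e-07). Rsad2, the antiviral enzyme viperin, read 655054, 699328 and 746885 in microglia and 125, 70.2 and 59.9 in neurons (log2 difference 13.06 ± 0.27 (SE), limma adjusted p = 6.9e-07). These genes were expressed at a low level in the neuron libraries apart from Ifit1, and the 3 libraries of each group lay close together. Cmpk2, a mitochondrial nucleotide kinase next to Rsad2, read 574684, 614906 and 673809.6 against 1137, 1055 and 837 (log2 difference 9.27 ± 0.14 (SE), limma adjusted p = 2.7e-07). Isg15, a ubiquitin-like modifier, read 57731, 57953 and 60778 against 11.9, 30.9 and 4.08 (log2 difference 12.16 ± 0.64 (SE), limma adjusted p = 1.2e-05). Gbp2, a guanylate-binding protein, read 242523, 286824 and 302486 against 60.5, 67.2 and 209.9 (log2 difference 11.49 ± 0.48 (SE), limma adjusted p = 5.5e-06). Of the 40 genes, 9 were listed at 0 in all neuron libraries.

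Promoter sequence was read for these genes because all 40 were called higher in microglia. The RefSeq table gives 250 bases before and 50 after each gene's start on build GRCm38.p6, whereas the authors' build is GRCm39, so the coordinates belong to the sequence table alone. A response-element motif (GAAA, any 2 bases, then GAAA again, on either strand) was present in 16 of the 27 interferon-stimulated genes with a window (59.3%), against 3.97% of the 12227 genes tested that had one and 3.44% of all 32851 windows. It was in 7.27% of the genes called higher in microglia and 2.99% of those called higher in neurons. Motif matches describe these letters in these windows and do not show binding. The list holds genes named for their interferon response and was drawn up with earlier results known, so its share is not a test. The genes shown were picked among those with a match. Shown 5′ to 3′ in the direction of the gene, with motif matches in capitals, are Ifit1 at chr19:34640765-34640833 (plus strand), Rsad2 at chr12:26456543-26456592 (minus strand), Isg15 at chr4:156200855-156200916 (minus strand), Gbp2 at chr3:142620584-142620633 (plus strand) and Cxcl10, a chemokine described with the cytokines, at chr5:92349073-92349122 (minus strand). Each stretch lies upstream of the start, and its match ends 76, 111, 57, 50 and 204 bases before the start in that order.
Ifit1: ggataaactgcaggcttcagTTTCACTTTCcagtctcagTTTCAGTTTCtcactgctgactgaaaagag
Rsad2: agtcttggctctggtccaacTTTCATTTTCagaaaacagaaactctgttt
Isg15: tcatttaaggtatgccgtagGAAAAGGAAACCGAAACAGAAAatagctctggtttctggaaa
Gbp2: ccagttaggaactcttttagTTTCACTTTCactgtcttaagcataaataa
Cxcl10: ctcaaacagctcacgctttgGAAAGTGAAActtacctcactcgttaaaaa

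Ifit1 has 2 separate matches, on the minus strand of the gene, and Isg15 has 3 that overlap. Rsad2, Gbp2 and Cxcl10 have 1 each. Over the other lists the motif was in 0 to 25% of windows. It was in 5 of 20 windows of MHC class I genes (25%) and 3 of 19 of immediate early genes (15.8%). Vesicle fusion genes and neuropeptides and granins each had it in 3 of 21 (14.3%), and Toll-like receptors and adaptors in 2 of 14 (14.3%). None of the 15 windows of myeloid transcription factors or the 19 of the NF-kB list held it.

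Cytokines and chemokines were called higher in microglia at all 30 members tested, against 21.1% of all genes tested. Their median was 14.05 (12.16 with a pseudocount of 10), and 13 of the 30 were listed at 0 in all neuron libraries. Ccl4 and Ccl3, chemokines that attract leukocytes, read 871391, 824117 and 880437 and 416233, 471479.8 and 379499.6 in the microglia libraries, and in neurons 0.868, 0 and 0 and 0, 0 and 0.677. Their log2 differences were 19.41 ± 0.28 (SE) and 18.43 ± 0.26 (SE), with limma adjusted p = 2.7e-07 for each. Both differences depend on the pseudocount of 1, as the neuron values were near or at 0. Cxcl10, the interferon-inducible ligand of Cxcr3, read 223981, 204302 and 248003 in microglia and 25.0, 9.84 and 0.668 in neurons (log2 difference 14.82 ± 0.96 (SE), limma adjusted p = 2.8e-05). Ccl2, which recruits monocytes, read 327789.8, 464482 and 436821 against 51.6, 33.0 and 33.7 (log2 difference 13.32 ± 0.23 (SE), limma adjusted p = 3.7e-07). Tnf, a central inflammatory cytokine, read 150385, 162228 and 154654 in microglia and was listed at 0 in neurons (limma adjusted p = 1.5e-07). Il1a, an alarm cytokine, read 287595, 291814 and 263989 and was also listed at 0 in neurons (limma adjusted p = 1.2e-07). The chemokine and cytokine values were high in all 3 microglia libraries, from cultures for which the labels name no stimulus. Il12b, the shared subunit of interleukins 12 and 23, varied more between libraries, at 355936, 596706 and 458410.00 in microglia and 17.3, 0 and 0 in neurons (log2 difference 17.41 ± 1.15 (SE), limma adjusted p = 3.1e-05). Spp1, the secreted phosphoprotein osteopontin, read 584609, 729403 and 985047 in microglia, where replicate 3 was highest, and 76.8, 23.7 and 83.9 in neurons (log2 difference 13.74 ± 0.50 (SE), limma adjusted p = 4.1e-06). Ifnb1, the type I interferon beta, was named after its values were seen: it read 7376, 4625 and 5959.9 in microglia and was listed at 0 in neurons (limma adjusted p = 2.6e-06).

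The NF-kB pathway and its targets were called higher in microglia at 23 of 24 members, against 21.1% of all genes tested, with a median of 6.96. NF-kB is held in the cytoplasm by inhibitors such as Nfkbia, is released by the IKK kinases and induces those inhibitors in turn. Nfkbia read 92774, 81089 and 101157 in microglia and 584, 567 and 611 in neurons (log2 difference 7.28 ± 0.11 (SE), limma adjusted p = 2.9e-07). Icam1, an adhesion molecule for leukocytes, read 245029, 256876 and 259229 against 215, 176 and 408 (log2 difference 9.99 ± 0.30 (SE), limma adjusted p = 2.7e-06). Acod1, which makes itaconate in activated macrophages, read 133906, 124445 and 132391 in microglia and was listed at 0 in neurons (limma adjusted p = 1.5e-07). Ptgs2, the inducible cyclooxygenase, read 100061, 135345 and 122674 against 161, 217 and 100.3 (log2 difference 9.60 ± 0.29 (SE), limma adjusted p = 2.7e-06). The single member higher in neurons was Chuk, which encodes an IKK subunit, at 2769, 2743 and 2816 against 1721, 1415 and 825 (log2 difference -1.14 ± 0.28 (SE), limma adjusted p = 0.010).

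A κB motif (GGG, any 2 bases, then TTTCC, on either strand) was in 6 of 21 windows of the cytokine list (28.6%) and 4 of 19 of the NF-kB list (21.1%), against 2.10% of genes tested and 1.63% of all windows. It was in 3.45% of the genes called higher in microglia and 1.54% of those higher in neurons, and its matches overlapped response-element matches in 3 windows. Over the other lists it was in 0 to 10.5% of windows, the highest being uptake receptors at 2 of 19. The genes shown were chosen after their values and matches were seen. They are Il6, the acute-phase cytokine, at chr5:30013050-30013099 (plus strand), the neutrophil chemokines Cxcl1 at chr5:90891136-90891203 and Cxcl2 at chr5:90903782-90903850 (both plus strand), and Nfkbia at chr12:55492648-55492696 (minus strand), on GRCm38.p6 with matches in capitals.
Il6: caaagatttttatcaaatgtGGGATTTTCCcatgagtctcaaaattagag
Cxcl1: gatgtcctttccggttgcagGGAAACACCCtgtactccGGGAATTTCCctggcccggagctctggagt
Cxcl2: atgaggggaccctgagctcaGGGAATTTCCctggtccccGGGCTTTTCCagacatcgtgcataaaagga
Nfkbia: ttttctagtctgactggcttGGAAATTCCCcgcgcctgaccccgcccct

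Il6 read 33816, 43756 and 39079.7 in microglia and was listed at 0 in neurons (limma adjusted p = 4.2e-07). Cxcl1 read 25322, 21827 and 20503 against 3.43, 20.5 and 0 (log2 difference 12.26 ± 1.06 (SE), limma adjusted p = 1.0e-04), and Cxcl2 read 22496, 23847 and 17339 and was listed at 0 in neurons (limma adjusted p = 7.6e-07). Cxcl1 and Cxcl2, which neighbour each other on the chromosome, each hold 2 matches.

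Receptors that sense microbes were called higher in microglia at 19 of 20 members of the Toll-like receptor list, against 21.1% of all genes tested. None was higher in neurons, and the median was 7.64 (6.16 with a pseudocount of 10). Cd14, the co-receptor for lipopolysaccharide, read 353551, 460205 and 459088 in microglia and 57.2, 15.4 and 21.2 in neurons (log2 difference 13.89 ± 0.47 (SE), limma adjusted p = 3.3e-06). Tlr2, which senses lipopeptides, read 41477, 33214 and 38389 against 29.3, 0 and 52.8 (log2 difference 11.64 ± 1.47 (SE), limma adjusted p = 5.6e-04). Tlr3, the endosomal receptor for double-stranded RNA, was present in both groups, at 10772, 13804 and 11689 against 576, 469.8 and 515 (log2 difference 4.53 ± 0.14 (SE), limma adjusted p = 2.9e-06). Neuron values of Cd14 and Tlr2 were at most 57.2, and those of Tlr3 were at least 469.8.

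Complement genes were called higher in microglia at 16 of 19 members, against 21.1% of all genes tested, with 2 higher in neurons and a median of 7.38. C1qb, a chain of the initiating C1q complex, read 148839, 169286 and 179909 in microglia and was listed at 0 in neurons (limma adjusted p = 1.5e-07). C1qc, another chain of that complex, read 107686, 117980.1 and 66741 and was also listed at 0 in neurons (limma adjusted p = 4.3e-07). Itgb2, the beta chain of complement receptor 3, read 53314, 62181 and 60865 and was listed at 0 in neurons (limma adjusted p = 3.0e-07). The complement genes higher in neurons were C4b, a component cleaved by the C1 complex, at 445, 118 and 329.7 against 19.1, 17.6 and 0 (log2 difference -5.17 ± 1.30 (SE), limma adjusted p = 0.012), and Cd55, which speeds the decay of convertases at the cell surface, at 987, 1358 and 815 against 91.1, 523 and 377 (log2 difference -1.97 ± 0.67 (SE), limma adjusted p = 0.036). Cd55 was not called when any of the 3 neuron libraries was left out (adjusted p of 0.075 to 0.12) or in the fit of all 9 cell libraries (0.12). C4b was not called without neuron replicate 1 (adjusted p = 0.050). Neither was called after quantile normalization.

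Antigen presentation genes of both classes were mostly higher in microglia. MHC class I genes were called higher in microglia at 21 of 23 members with a median of 5.21, against 21.1% of all genes tested. Class II genes were called higher in microglia at 7 of 11 with a median of 5.04 (2.90 with a pseudocount of 10). H2-D1, a class I heavy chain whose reads can be shared with near-identical class I genes, read 458053, 500649 and 439670.3 in microglia and 13558, 13995 and 13601 in neurons (log2 difference 5.08 ± 0.07 (SE), limma adjusted p = 2.7e-07). B2m, the class I light chain, read 206395, 220742 and 156179.98 against 4546, 3783 and 3650.3 (log2 difference 5.60 ± 0.16 (SE), limma adjusted p = 2.2e-06). Both transcripts were measured in every neuron library. Canx, the chaperone of newly made glycoproteins, was the class I member higher in neurons, at 116718, 143445 and 110938 against 61017, 76299 and 71981 (log2 difference -0.82 ± 0.13 (SE), limma adjusted p = 0.0018). Pdia3, its disulfide isomerase partner, was higher in microglia as deposited at 76179.8, 87665 and 94297 against 54319, 61876 and 56321 (log2 difference 0.58 ± 0.10 (SE), limma adjusted p = 0.0027), with a log2 difference of -0.087 at equal totals and -0.65 after quantile normalization. For class II, Cd74, the invariant chain, read 9094, 11712 and 11034 against 156, 284 and 83.3 (log2 difference 6.08 ± 0.44 (SE), limma adjusted p = 4.4e-05), and H2-Ab1, a class II beta chain, read 455, 673 and 529 against 35.8, 163 and 41.6 (log2 difference 3.10 ± 0.63 (SE), limma adjusted p = 0.0048). H2-DMa, which loads peptides onto class II, was higher in neurons at 1477, 1077 and 1481 against 222, 491 and 370.1 (log2 difference -1.95 ± 0.33 (SE), limma adjusted p = 0.0022).

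Receptors for uptake were called higher in microglia at 21 of 24 members, against 21.1% of all genes tested. Their median was 9.09 (7.33 with a pseudocount of 10). Trem2, a lipid-sensing receptor of microglia, read 51661, 57683 and 55791 in microglia and was listed at 0 in neurons (limma adjusted p = 3.0e-07). Fcer1g, the signalling chain of Fc receptors, read 128604, 146313 and 143889 and was listed at 0 in neurons (limma adjusted p = 1.5e-07). Msr1, a scavenger receptor, read 83059, 96164 and 94839 and was listed at 0 in neurons (limma adjusted p = 2.5e-07). Fcgr3, a low-affinity receptor for IgG, was measured in neurons too, at 65596, 80585 and 75726 in microglia against 478, 1899 and 615 in neurons, with neuron replicate 2 the highest of that group (log2 difference 6.48 ± 0.51 (SE), limma adjusted p = 6.4e-05). Scarb1, the receptor for high-density lipoprotein, was higher in neurons at 3546, 1971 and 3439 against 1178, 1226 and 991 (log2 difference -1.36 ± 0.26 (SE), limma adjusted p = 0.0036), and without neuron replicate 2 the list held 2 genes higher in neurons.

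Lysosomal genes were present in both cell types and called higher in microglia at 35 of 40 members, against 21.1% of all genes tested. In neurons 3 were higher, and the median was 3.25. Ctsb, a cysteine protease, read 1691292, 1898723 and 1786405 in microglia and 57321, 68096 and 56841 in neurons (log2 difference 4.89 ± 0.10 (SE), limma adjusted p = 5.8e-07). Ctsd, an aspartyl protease, read 592899.6, 620939 and 585231 against 22046, 23425 and 26045 (log2 difference 4.66 ± 0.08 (SE), limma adjusted p = 4.2e-07). Psap, the precursor of the saposins that activate lipid hydrolases, read 372258, 436311 and 382181 against 96380.2, 101484 and 109726 (log2 difference 1.95 ± 0.09 (SE), limma adjusted p = 7.8e-06). Ctss, a protease of antigen-presenting cells, differed in kind: it read 221845, 286145 and 266436 in microglia and was listed at 0 in neurons (limma adjusted p = 1.5e-07). The members higher in neurons were the calcium channel Mcoln1 (-0.42 ± 0.14 (SE)), the cathepsin Ctsf (-0.57 ± 0.19 (SE)) and the sialidase Neu1 (-0.51 ± 0.13 (SE)), all by less than 1 log2 unit. Of these, Mcoln1 lost its call without any microglia library or without neuron replicate 1 or 2 (limma adjusted p of 0.061 to 0.097), and Ctsf lost it without microglia replicate 1 or 3 or neuron replicate 1 or 3 (0.084 to 0.11). Both genes also lost it with no filter on low values or with a variance prior without trend (0.051 to 0.099). So did Mcoln1 in the fit of all 9 cell libraries (0.071) and Ctsf with the replicate block (0.082). The count higher in microglia was 31 with equal totals and 31 after quantile normalization.

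A PU.1 motif, GAGGAAGT on either strand, was in 3 of 20 windows of microglia identity genes (15%), against 3.52% of genes tested, 3.20% of all windows, 6.39% of genes called higher in microglia and 2.24% of those higher in neurons. Over the other lists the motif was in 0 to 12.9% of windows. It was in 4 of 31 windows of lysosomal genes (12.9%) and 1 of 9 of border macrophage markers (11.1%). Uptake receptors and the NF-kB list each had it in 2 of 19 (10.5%). None of the 15 windows of myeloid transcription factors held it. Hpgds, a prostaglandin D synthase of microglia, is shown as an example chosen after its values were seen, from chr6:65144752-65144799 (minus strand, GRCm38.p6) with the match in capitals. It read 22344, 20258 and 19458 in microglia and 51.9, 43.7 and 61.4 in neurons (log2 difference 8.61 ± 0.18 (SE), limma adjusted p = 6.6e-07).
Hpgds: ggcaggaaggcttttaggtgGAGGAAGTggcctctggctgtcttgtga

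Integrins and iron genes were more mixed. Of 19 integrins, 9 were higher in microglia and 5 in neurons, against 21.1% and 51.5% of all genes tested. Their median was 1.72, or 0.41 without neuron replicate 2. Itgam, the alpha chain of complement receptor 3, read 13827, 18049.6 and 16966 in microglia and 8.66, 0 and 0 in neurons (log2 difference 12.89 ± 0.93 (SE), limma adjusted p = 4.4e-05), while Itgb8, which activates TGF-beta, read 3609.9, 2421 and 3037 in neurons and 129.9, 205 and 263 in microglia (log2 difference -3.96 ± 0.31 (SE), limma adjusted p = 6.6e-05). Itga3, a laminin receptor chain, read 468, 355 and 627 in neurons and 0, 0 and 1.77 in microglia (log2 difference -8.39 ± 0.57 (SE), limma adjusted p = 3.5e-05). Of 18 iron-handling genes, 12 were higher in microglia and 2 in neurons, against the same shares over all genes. Fth1 and Ftl1, the ferritin heavy and light chains that store iron, were higher in microglia, Fth1 at 531855, 470489 and 472611 against 55153, 64396 and 58572 (log2 difference 3.05 ± 0.09 (SE), limma adjusted p = 2.3e-06) and Ftl1 at 920417, 777348 and 888131 against 144289.5, 171012 and 185264 (log2 difference 2.37 ± 0.12 (SE), limma adjusted p = 9.9e-06). Tfrc, the transferrin receptor that brings iron in, was higher in neurons at 4578, 7774 and 6347 against 1643, 2044 and 2142 (log2 difference -1.66 ± 0.22 (SE), limma adjusted p = 7.5e-04).

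**Figure D4:**
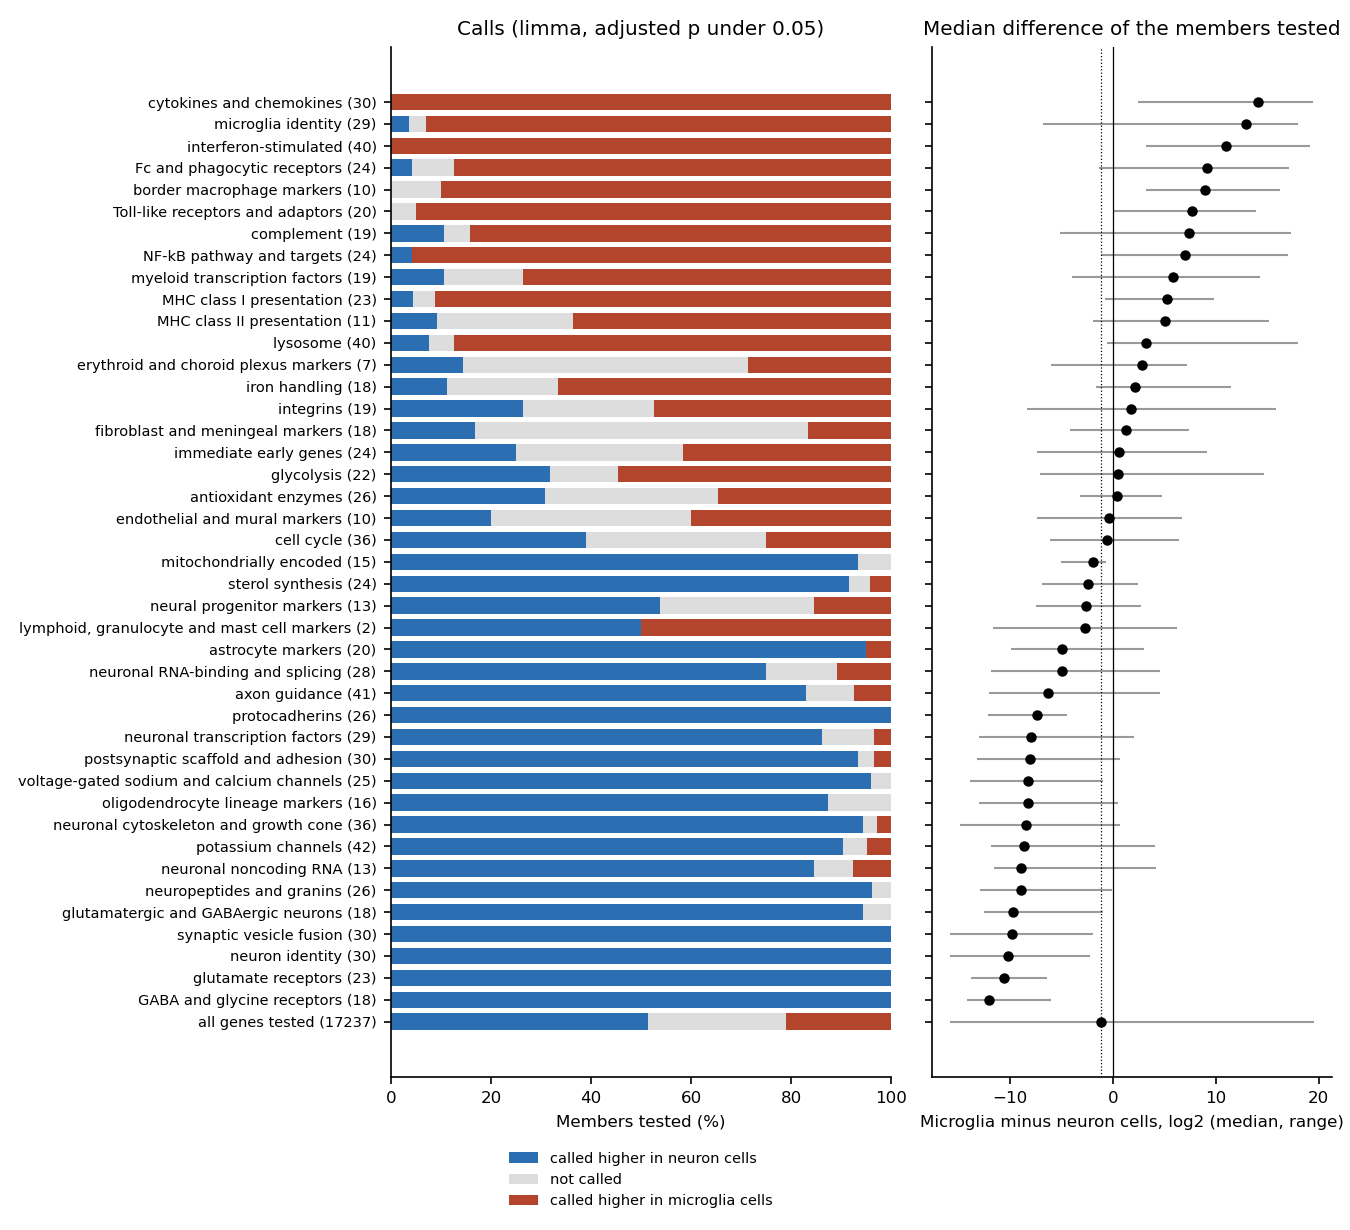
The left panel gives, for each gene list and for all genes tested, the percent of members called higher in neurons, not called or called higher in microglia, with the number tested in brackets. The right panel gives the median microglia minus neuron log2 difference as a point and the range of members as a line, both of which include genes listed at 0 in a group and depend on the pseudocount of 1, with a dotted line at the median of all genes tested (-1.16). Lists run from the cytokines and chemokines, with all 30 members higher in microglia, to the GABA and glycine receptors, with all 18 higher in neurons.

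Neuronal transcription factors were called higher in neurons at 25 of 29 members, against 51.5% of all genes tested, with a median of -7.96 (-5.61 with a pseudocount of 10), and 12 were listed at 0 in all microglia libraries. Myt1l, which holds neurons in their fate, read 9961, 6516 and 9290.2 in neurons and was listed at 0 in microglia (limma adjusted p = 2.0e-06). Neurod6, of cortical excitatory neurons, read 2442, 4626 and 1482 in neurons and was listed at 0 in microglia (limma adjusted p = 8.1e-06). Sox11, a factor of young neurons, read 18434, 20182 and 17792 in neurons and 27.7, 81.4 and 0 in microglia (log2 difference -10.46 ± 1.57 (SE), limma adjusted p = 0.0012). Foxp1 was the member higher in microglia, at 12102, 11546 and 9392 against 2177, 4819 and 1914 (log2 difference 2.01 ± 0.36 (SE), limma adjusted p = 0.0027).

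Both excitatory and inhibitory markers were present in every neuron library. Of 18 transmitter and subtype genes tested, 17 were called higher in neurons, against 51.5% of all genes tested. In all microglia libraries 11 of the 18 were listed at 0. Slc17a7, the vesicular glutamate transporter of cortical neurons, read 3531, 1701 and 2376 in neurons and was listed at 0 in microglia (limma adjusted p = 4.8e-06). Gad1, which makes GABA, read 7219.9, 4971 and 6273 in neurons and was listed at 0 in microglia (limma adjusted p = 2.3e-06). Npy, the peptide of a class of interneurons, was measured in microglia too, at 5540.2, 3673 and 6004 in neurons against 709, 759 and 992 in microglia (log2 difference -2.61 ± 0.24 (SE), limma adjusted p = 1.2e-04).

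Receptor subunits for the main transmitters were called higher in neurons where tested, but those listed at 0 in microglia passed the filter only through neurons. Over all 17237 genes tested, 51.5% were called higher in neurons and 2122 were listed at 0 in microglia. Of 25 glutamate receptor genes, 23 were tested and all 23 were higher in neurons (median -10.64, or -7.53 with a pseudocount of 10, and 15 listed at 0 in microglia). Of 24 GABA and glycine receptor genes, 18 were tested and all 18 were higher in neurons (median -12.05, or -9.14 with a pseudocount of 10, and 9 listed at 0 in microglia). After quantile normalization 17 of those 18 stayed called. Gria2, the AMPA receptor subunit that limits calcium entry, read 57995, 71156 and 53512 in neurons and 78.7, 0 and 0 in microglia (log2 difference -13.78 ± 1.72 (SE), limma adjusted p = 5.4e-04). Grin2b, an NMDA receptor subunit of young neurons, read 10128, 6743 and 12897 in neurons and was listed at 0 in microglia (limma adjusted p = 2.4e-06). Gria2 was above 0 in 1 microglia library, whereas Gria3, another AMPA receptor subunit, was above 0 in all of them and read 62.8, 129 and 108 in microglia against 18957, 19093 and 20778 in neurons (log2 difference -7.66 ± 0.28 (SE), limma adjusted p = 4.0e-06).

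Voltage-gated sodium and calcium channels were called higher in neurons at 24 of 25 members tested, against 51.5% of all genes tested. Their median was -8.28 (-5.84 with a pseudocount of 10). Scn2a, a sodium channel of axon initial segments, read 13836, 16940.5 and 14004 in neurons and was listed at 0 in microglia (limma adjusted p = 9.1e-07). Cacna2d1, the channel subunit bound by gabapentin, read 14851, 16478 and 14999 in neurons and 12.5, 4.69 and 232 in microglia, where replicate 3 was highest (log2 difference -9.20 ± 1.32 (SE), limma adjusted p = 0.0010). Of 42 potassium channel genes, 38 were higher in neurons and 2 in microglia, against 51.5% and 21.1% of all genes tested. Their median was -8.67 (-6.45 with a pseudocount of 10). Kcnj10, an inward rectifier best known in astrocytes, read 6389, 3901 and 5933 in neurons and 31.1, 15.5 and 37.1 in microglia (log2 difference -7.60 ± 0.40 (SE), limma adjusted p = 1.2e-05). The potassium channels higher in microglia were Kcnn4, a calcium-activated channel of immune cells, at 401, 845 and 664 against 30.9, 14.7 and 96.9 (log2 difference 4.06 ± 0.73 (SE), limma adjusted p = 0.0028), and Kcnk6, a leak channel, at 48.8, 46.0 and 19.7 against 18.7, 3.09 and 2.14 (log2 difference 2.53 ± 0.82 (SE), limma adjusted p = 0.031). Kcnk6 was not called without microglia replicate 1 or 2 or neuron replicate 2 or 3 (limma adjusted p of 0.085 to 0.10). It was also not called at equal totals (0.075) or with library weights (0.057).

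The vesicle fusion machinery was called higher in neurons at all 30 members, against 51.5% of all genes tested, with a median of -9.77 (-7.74 with a pseudocount of 10). Syt1, the calcium sensor for fast release, read 53388, 64116 and 54088 in neurons and was listed at 0 in microglia (limma adjusted p = 3.1e-07). Snap25, the SNARE protein of the plasma membrane, read 26846, 44494 and 32103 in neurons and 0, 1.05 and 0 in microglia (log2 difference -14.70 ± 0.41 (SE), limma adjusted p = 2.1e-06). Syt11, a synaptotagmin that does not sense calcium, was measured in microglia as well, at 94663, 106534 and 109331 in neurons against 1089, 679 and 362 in microglia (log2 difference -7.32 ± 0.38 (SE), limma adjusted p = 1.2e-05). Postsynaptic and adhesion genes were higher in neurons at 28 of 30 members, against the same 51.5%, with a median of -8.05 (-6.47 with a pseudocount of 10). Nlgn3, a postsynaptic adhesion molecule, read 17088, 21755 and 15694 in neurons and 14.7, 0 and 0 in microglia (log2 difference -12.81 ± 1.11 (SE), limma adjusted p = 1.0e-04). Dlgap4, a scaffold protein, was the member higher in microglia, at 5789.9, 5994 and 6189 against 3495, 3270.2 and 4289.8 (log2 difference 0.71 ± 0.13 (SE), limma adjusted p = 0.0028), with 0.045 at equal totals, where it was not called.

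Neuropeptides and granins were called higher in neurons at 25 of 26 members, against 51.5% of all genes tested. Their median was -8.98 (-6.74 with a pseudocount of 10). Sst, the interneuron peptide somatostatin, read 4791, 2446 and 4735 in neurons and was listed at 0 in microglia (limma adjusted p = 4.2e-06). Chgb, a granin of dense-core vesicles, read 15882, 28338 and 18327 in neurons and 49.4, 0 and 19.5 in microglia (log2 difference -10.96 ± 1.41 (SE), limma adjusted p = 6.3e-04). Scg2, another granin, read 10089.6, 18559.8 and 13571 in neurons and 25.6, 0 and 0 in microglia (log2 difference -12.16 ± 1.32 (SE), limma adjusted p = 2.9e-04). Cpe, which trims peptide precursors, was present in both groups at 67637, 73616 and 30022 in neurons and 2698, 2326 and 1805 in microglia (log2 difference -4.56 ± 0.37 (SE), limma adjusted p = 7.4e-05).

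The cyclic AMP response element TGACGTCA, which reads the same on both strands, was in 5 of 21 windows of that list (23.8%), against 3.35% of genes tested, 1.79% of all windows, 2.79% of genes called higher in microglia and 3.39% of those higher in neurons. It overlapped a PU.1 match in 1 window. Over the other lists the element was in 0 to 16.7% of windows. It was in 1 of 6 windows of endothelial and mural markers (16.7%) and 3 of 19 of immediate early genes (15.8%). It was also in 3 of 22 of RNA-binding genes (13.6%) and 2 of 15 of transmitter and subtype genes (13.3%). None of the 12 windows of glutamate receptors or the 34 of axon guidance genes held it. The genes shown were picked among those with the element. Shown from GRCm38.p6 with the element in capitals are Sst at chr16:23890865-23890912, Scg2 at chr1:79440067-79440114, Cartpt at chr13:99900768-99900815 (these 3 on the minus strand) and Chgb at chr2:132781550-132781597 (plus strand). Cartpt, the precursor of CART peptides, was named after its values were seen. It read 920.2, 2134 and 1235 in neurons and was listed at 0 in microglia (limma adjusted p = 7.2e-06).
Sst: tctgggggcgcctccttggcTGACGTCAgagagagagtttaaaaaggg
Chgb: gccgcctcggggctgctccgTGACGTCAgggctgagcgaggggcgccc
Scg2: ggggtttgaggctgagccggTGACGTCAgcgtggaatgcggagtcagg
Cartpt: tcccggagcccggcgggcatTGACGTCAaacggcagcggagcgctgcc

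Genes that build axons and dendrites were mostly higher in neurons but not absent from microglia. Of 36 cytoskeleton and growth cone genes, 34 were higher in neurons and 1 in microglia, against 51.5% and 21.1% of all genes tested. Their median was -8.49. Tuba1a, the main tubulin of young neurons, read 401851, 387095 and 386483 in neurons and 4835, 4567 and 5991 in microglia (log2 difference -6.26 ± 0.11 (SE), limma adjusted p = 4.7e-07). Map1b, a growth cone microtubule protein, read 232717, 245008 and 246476 in neurons and 225, 1220.1 and 1237 in microglia, with replicate 1 lowest (log2 difference -8.43 ± 0.66 (SE), limma adjusted p = 6.7e-05). Dpysl2, which carries tubulin to growing axons, was high in both groups at 84254, 107701 and 75119 against 25227, 24010.4 and 26509 (limma adjusted p = 6.5e-05). Marcks, a membrane actin regulator, was higher in microglia as deposited at 20041, 20162 and 14513 against 12196, 12501 and 9177 (log2 difference 0.69 ± 0.18 (SE), limma adjusted p = 0.015), with log2 differences of 0.024 at equal totals and 0.15 after quantile normalization, neither of them called. Marcks also lost its call without microglia replicate 2 (limma adjusted p = 0.052). Of 41 axon guidance genes, 34 were higher in neurons and 3 in microglia, against the same shares over all genes. Their median was -6.32 (-5.16 with a pseudocount of 10). Epha4, a receptor for ephrins, read 16914, 18216 and 18213 in neurons and 149, 37.7 and 97.4 in microglia (log2 difference -7.74 ± 0.48 (SE), limma adjusted p = 2.4e-05). The guidance genes higher in microglia were the semaphorin co-receptors Nrp2, at 30922, 40689 and 31056 against 1544, 1081 and 1878 (log2 difference 4.53 ± 0.23 (SE), limma adjusted p = 1.1e-05), and Nrp1, at 13810.3, 14978 and 15987 against 1773, 1577 and 2135 (log2 difference 3.04 ± 0.14 (SE), limma adjusted p = 7.6e-06), and the ligand Sema4d (2.41 ± 0.23 (SE)). All 26 protocadherins tested were higher in neurons, against 51.5% of all genes tested (median -7.35, or -5.61 with a pseudocount of 10). Among them was Pcdhgc4, whose reads can be split with the clustered genes that share its exons. It read 8293, 4560.1 and 9806 in neurons and 151, 0 and 0 in microglia (log2 difference -10.40 ± 1.99 (SE), limma adjusted p = 0.0038).

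Regulators of splicing and of neuronal genes differed in both directions. Ptbp1, which represses neuronal exons in other cells, read 2738, 2908 and 3306 in microglia and 1101, 687 and 1029 in neurons (log2 difference 1.69 ± 0.21 (SE), limma adjusted p = 5.6e-04). Its neuronal paralog Ptbp2 read 2462, 2462 and 2404 in neurons and 123, 257 and 183 in microglia (log2 difference -3.76 ± 0.29 (SE), limma adjusted p = 6.0e-05), and Ptbp3, the paralog of blood cells, read 6365, 6071 and 5182 in microglia and 468, 219 and 135 in neurons (log2 difference 4.60 ± 0.44 (SE), limma adjusted p = 1.7e-04). The members of this family thus differed between the groups in different directions, with no overlap for any of them, and each direction held under both scalings. Rest, which silences neuronal genes in other cells, read 1839, 1395 and 1065 in microglia and 368, 293 and 183 in neurons (log2 difference 2.37 ± 0.34 (SE), limma adjusted p = 0.0010). Of 28 RNA-binding genes tested, 21 were higher in neurons and 3 in microglia, against 51.5% and 21.1% of all genes tested. Their median was -4.93 (-3.58 with a pseudocount of 10). Celf4, a binding protein of excitatory neurons, read 19698, 20264 and 23873 in neurons and 25.5, 10.8 and 27.8 in microglia (log2 difference -9.99 ± 0.37 (SE), limma adjusted p = 4.2e-06), whereas Celf2 was close in both, at 16029, 14159 and 13414 and 11629.8, 11964 and 12109 (log2 difference -0.28 ± 0.09 (SE), limma adjusted p = 0.031, and log2 differences of -0.95 at equal totals and -0.82 after quantile normalization). Celf2 was not called without any of the microglia libraries or without neuron replicate 1 (limma adjusted p of 0.065 to 0.081). Its call was also lost in the fit of all 9 cell libraries (0.051), with the replicate block (0.065) and with a variance prior without trend (0.16).

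Noncoding RNAs of the brain were called higher in neurons at 11 of 13 members, against 51.5% of all genes tested. Their median was -8.95 (-6.77 with a pseudocount of 10). Meg3, a maternally expressed imprinted RNA, read 286354, 202861 and 289306 in neurons and 112, 375 and 361 in microglia (log2 difference -10.01 ± 0.49 (SE), limma adjusted p = 9.4e-06). Snhg11, a host gene of small nucleolar RNAs, read 68747, 64412 and 64578 in neurons and 33.3, 109.99 and 117 in microglia (log2 difference -9.75 ± 0.48 (SE), limma adjusted p = 9.8e-06). Malat1, a nuclear RNA of most cells, read 274366, 185574 and 208543 in neurons and 159192, 133674 and 91940.2 in microglia (log2 difference -0.81 ± 0.24 (SE), limma adjusted p = 0.022), and was not called without neuron replicate 1 (adjusted p = 0.079) or 3 (adjusted p = 0.062). Neat1, which builds nuclear paraspeckles, was the member higher in microglia, at 5742, 8169 and 5639.8 against 502, 265 and 341 (log2 difference 4.17 ± 0.28 (SE), limma adjusted p = 3.3e-05).

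Immediate early, glycolysis, antioxidant and cell cycle genes had medians of -0.60 to 0.61, each of which changed sign under 1 or both scalings. Of 24 immediate early genes, 10 were higher in microglia and 6 in neurons, against 21.1% and 51.5% of all genes tested. Their median of 0.61 was -0.06 at equal totals. Atf3, a stress-induced factor, read 48893, 49428 and 48575 in microglia and 98.6, 151 and 39.1 in neurons (log2 difference 9.18 ± 0.47 (SE), limma adjusted p = 1.1e-05), and Junb, an AP-1 subunit, read 13297, 11859 and 11615 against 489, 518 and 369 (log2 difference 4.75 ± 0.16 (SE), limma adjusted p = 3.4e-06). The members higher in neurons included the activity-regulated Arc, at 212, 281 and 234 against 24.2, 0 and 0 (log2 difference -6.37 ± 1.31 (SE), limma adjusted p = 0.0052), and Bdnf, a neurotrophin, at 1586, 3850.04 and 1663 against 70.1, 0 and 29.3 (log2 difference -7.39 ± 1.58 (SE), limma adjusted p = 0.0061).

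Metabolic genes showed isoform differences. Sterol synthesis genes were higher in neurons at 22 of 24 members, against 51.5% of all genes tested, with a median of -2.40. Hmgcs1, an early enzyme of the pathway, read 68257, 61400.3 and 57037 in neurons and 6165, 5248 and 6999 in microglia (log2 difference -3.35 ± 0.13 (SE), limma adjusted p = 4.8e-06). Of 22 glycolysis genes, 12 were higher in microglia and 7 in neurons, against 21.1% and 51.5% of all genes tested. The counts were 7 and 11 at equal totals and 8 and 11 after quantile normalization. Hk3, a hexokinase of myeloid cells, read 26859, 27739 and 24683 in microglia and was listed at 0 in neurons (limma adjusted p = 5.3e-07). Ldha, the lactate dehydrogenase subunit of glycolytic tissue, read 26271, 29308 and 34200.3 against 15872, 20557 and 15227 (log2 difference 0.80 ± 0.15 (SE), limma adjusted p = 0.0039), with 0.14 at equal totals and 0.028 after quantile normalization, neither of them called. Ldhb, the other subunit, read 22057, 32171 and 27049 in neurons against 4168, 4012 and 3899 in microglia (log2 difference -2.73 ± 0.15 (SE), limma adjusted p = 1.3e-05), and Slc2a3, the neuronal glucose transporter, read 13527, 12541 and 11024 against 34.0, 96.5 and 209.9 (log2 difference -7.10 ± 0.63 (SE), limma adjusted p = 1.1e-04).

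Mitochondrially encoded transcripts were higher in neurons at 14 of 15 members tested, against 51.5% of all genes tested, with a median of -1.94. CYTB, a subunit of respiratory complex III, read 802579, 784997 and 941393 in neurons and 179038, 220553 and 174018 in microglia (log2 difference -2.14 ± 0.12 (SE), limma adjusted p = 1.7e-05). Of 26 antioxidant genes, 9 were higher in microglia and 8 in neurons, against 21.1% and 51.5% of all genes tested. Their median of 0.38 was -0.28 at equal totals. Prdx1, a peroxiredoxin, read 258461, 262077 and 239868 in microglia and 9115, 10461 and 8618 in neurons (log2 difference 4.76 ± 0.09 (SE), limma adjusted p = 6.2e-07). Sod2, the mitochondrial superoxide dismutase and an NF-kB target, read 118599.8, 117776 and 112136 against 5424, 6837 and 5719 (log2 difference 4.28 ± 0.10 (SE), limma adjusted p = 1.3e-06), while the cytosolic Sod1 read 4678, 5613 and 4267 in neurons against 1821, 1915 and 1796 in microglia (log2 difference -1.39 ± 0.13 (SE), limma adjusted p = 1.6e-04).

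Of 36 cell cycle genes, 9 were higher in microglia and 14 in neurons, against 21.1% and 51.5% of all genes tested, with a median of -0.60 against -1.16. The counts were 6 and 21 at equal totals, and 13 and 8 with a median of 0.45 after quantile normalization. Cdkn1a, which encodes the cycle inhibitor p21, read 196753, 161695 and 192543 in microglia and 1711, 2628 and 2235 in neurons (log2 difference 6.41 ± 0.18 (SE), limma adjusted p = 1.9e-06). Pcna, the sliding clamp of DNA replication, read 16129, 13623 and 12777 against 2757, 2724 and 2879 (log2 difference 2.34 ± 0.11 (SE), limma adjusted p = 9.0e-06). Top2a, a topoisomerase of dividing cells, was higher in neurons at 3437, 1666 and 3590.1 against 782, 1061 and 1046 (log2 difference -1.52 ± 0.33 (SE), limma adjusted p = 0.0065), and Cenpf, a kinetochore protein, read 2101, 689 and 1382 against 13.6, 21.8 and 16.8 (log2 difference -6.12 ± 0.50 (SE), limma adjusted p = 7.5e-05). Neuron replicate 2 was the lowest neuron library for both Top2a and Cenpf. Glial markers described above were mixed: replicate 2 was lowest for Mbp, Pdgfra and Aqp4 and highest for Gfap and Fabp7. The neuron libraries held Top2a and Cenpf together with markers of glia, and the part of dividing non-neuronal cells was not tested.

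Genes taken from the whole table by the size of their difference added members that no list held. Cd69, an early activation antigen of leukocytes, read 676762, 725129.7 and 853449 in microglia and was listed at 0 in neurons (limma adjusted p = 1.2e-07). Mmp12, the elastase of macrophages, read 383725, 483911 and 420633 in microglia and was listed at 0 in neurons (limma adjusted p = 1.2e-07). Cybb, the catalytic subunit of the phagocyte NADPH oxidase, read 196053, 233945 and 205961 and was listed at 0 in neurons (limma adjusted p = 1.5e-07). Lcp1, the actin-bundling protein of blood cells, read 175826, 175825 and 198609.8 in microglia and 77.2, 52.9 and 23.3 in neurons (log2 difference 11.93 ± 0.42 (SE), limma adjusted p = 3.6e-06). In neurons, Adcy1, a calcium-stimulated adenylyl cyclase, read 20070.2, 18426 and 21715 and was listed at 0 in microglia (limma adjusted p = 6.7e-07). Cnr1, the cannabinoid receptor of nerve terminals, read 15260.01, 18707 and 16509 and was listed at 0 in microglia (limma adjusted p = 8.0e-07). Nell2, a secreted neural protein, read 34665, 33754 and 36872 and was listed at 0 in microglia (limma adjusted p = 4.0e-07). Among genes above 0 in every library, Cadm2, a synaptic adhesion molecule, read 18878, 22870.1 and 20436 in neurons and 86.0, 4.98 and 8.49 in microglia (log2 difference -10.25 ± 0.98 (SE), limma adjusted p = 1.6e-04), and Nnat, a paternally expressed imprinted gene, read 18556, 13246 and 18211 against 23.7, 18.0 and 0.846 (log2 difference -10.76 ± 0.99 (SE), limma adjusted p = 1.3e-04). The higher group was high in all 3 of its libraries for each of these genes.

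Genes that differed little were found by interval, as those whose 95% interval of the log2 difference lay within -0.5 to 0.5, which held for 327 genes. Ubb, a ubiquitin precursor, read 154486, 172984 and 165374 in microglia and 156448, 181058 and 171044 in neurons (log2 difference -0.04 ± 0.08 (SE), limma adjusted p = 0.65). Cst3, the protease inhibitor cystatin C, read 72298, 85158 and 82691 against 86719, 66081 and 95525 (log2 difference -0.03 ± 0.15 (SE), limma adjusted p = 0.84). Atp6v0b, a subunit of the proton pump of lysosomes and synaptic vesicles, read 42691, 48875 and 49892 against 44773, 54473 and 52209.8 (log2 difference -0.10 ± 0.11 (SE), limma adjusted p = 0.44). Their libraries overlapped between the groups. All 3 genes were called higher in neurons at equal totals (log2 differences of -0.71, -0.70 and -0.76) and after quantile normalization (-1.70, -1.31 and -1.20). Hspa8, a heat shock cognate chaperone, read 170836, 169375 and 197509 against 177086, 155040.3 and 140113 (log2 difference 0.19 ± 0.11 (SE), limma adjusted p = 0.17), with log2 differences of -0.47 at equal totals and -1.40 after quantile normalization, so that its levels were close only on the deposited scale.

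The sEV libraries gave a separate readout of the same cell types. In a separate fit of 3 microglia sEV and 3 neuron sEV libraries, 14687 genes were tested, of which 2291 were called higher in microglia sEVs (15.6%) and 6421 higher in neuron sEVs (43.7%). Of the 3109 genes called higher in microglia cells and tested in sEVs, 1913 were called higher in microglia sEVs (61.5%) and 150 higher in neuron sEVs (4.82%). Of the 7321 called higher in neuron cells, 4830 were called higher in neuron sEVs (66.0%) and 65 higher in microglia sEVs (0.888%). All 40 interferon-stimulated genes were called higher in microglia sEVs too, and so were 25 of the 27 cytokines and chemokines tested there. Of the other two, Csf1 was not called, and Lif, a cytokine of the interleukin 6 family, was called higher in neuron sEVs, both named after their values were seen. Lif read 165, 416 and 519 in microglia cells and 43.3, 55.5 and 20.2 in neuron cells (log2 difference 3.13 ± 0.62 (SE), limma adjusted p = 0.0043), and was listed at 0 in microglia sEVs and read 218, 267 and 373 in neuron sEVs (limma adjusted p = 1.2e-05). Csf1, the ligand of Csf1r, read 1027, 35.7 and 27.4 in microglia sEVs and 277, 246 and 242 in neuron sEVs (limma adjusted p = 0.47). Ifit1 read 615521, 581262 and 628778 in microglia sEVs and was listed at 0 in neuron sEVs (limma adjusted p = 1.2e-05), and Ccl4 read 875291, 735542 and 679619 and 56.9, 29.9 and 0 (log2 difference 15.93 ± 1.57 (SE), limma adjusted p = 3.5e-04).

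Of the neuronal lists, 21 of 29 neuron identity genes, 24 of 29 vesicle fusion genes and 16 of 20 glutamate receptors tested in sEVs were called higher in neuron sEVs, against 43.7% of all genes tested there. Tuba1a read 307163, 234422 and 245909 in neuron sEVs and 1778, 3693 and 6410.5 in microglia sEVs (log2 difference -6.23 ± 0.47 (SE), limma adjusted p = 1.1e-04). Meg3 was not called there, at 1008, 415 and 481 in neuron sEVs and 0, 611 and 1048 in microglia sEVs (log2 difference -2.77 ± 2.82 (SE), limma adjusted p = 0.42). The sEV values of Meg3 overlapped between the groups, with 1 microglia library listed at 0. Mitochondrially encoded transcripts, with 14 of 15 higher in neuron cells, had 2 of 14 called higher in neuron sEVs and none in microglia sEVs. Ferritin light chain, Ftl1, was higher in microglia cells and higher in neuron sEVs, at 2488596, 2138478 and 2738143 in microglia sEVs and 5575237, 8197079 and 6664127 in neuron sEVs (log2 difference -1.46 ± 0.16 (SE), limma adjusted p = 6.3e-04). Ftl1 has near-identical pseudogene copies, so its reads may be split among them.

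**Figure D5:**
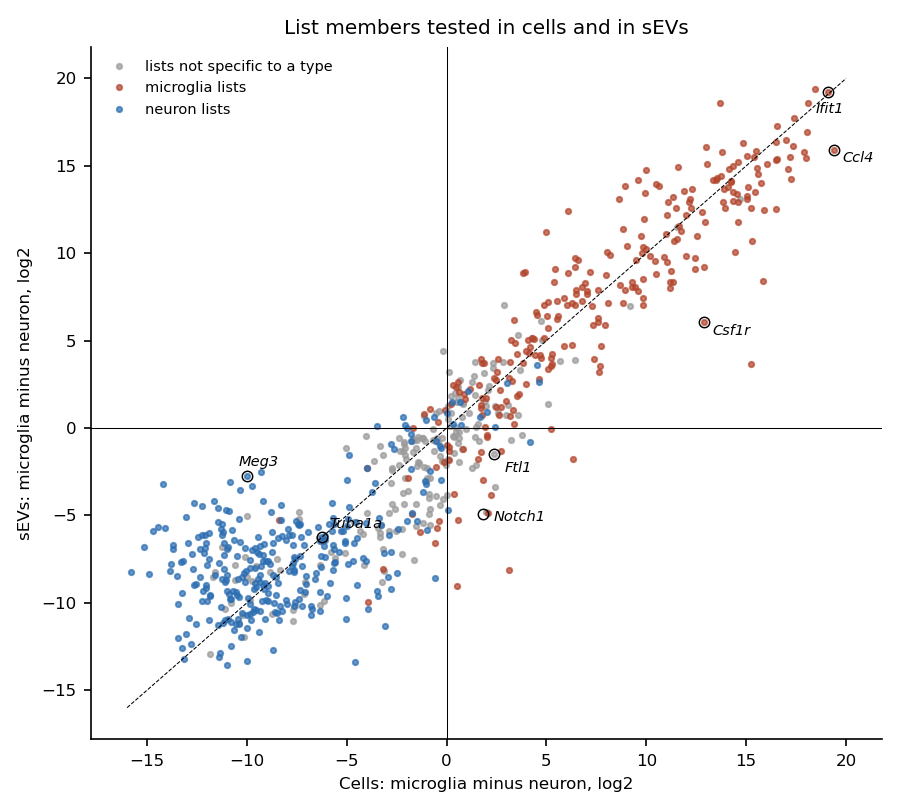
Each point is a list member tested in both fits, with the microglia minus neuron log2 difference in cells on the x axis and in sEVs on the y axis. Points are coloured by whether the list was drawn up for microglia, for neurons or for neither, and the dashed line marks equal differences. Lists of markers of other cell types were left out, apart from labelled genes, which are ringed. Ifit1 was listed at 0 in neuron cells and neuron sEVs, so its place at the upper right depends on the pseudocount, as does that of every gene listed at 0 in a group. Meg3 is nearer 0 in sEVs than in cells, and Ftl1 and Notch1 are above 0 in cells and below 0 in sEVs.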

How the data were processed

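Polyadenylated RNA was measured in 18 libraries, of which the 3 microglia and 3 neuron cell libraries, and the matching sEV libraries in a separate fit, were compared. Per the labels' protocols, the cDNA was made from poly(A) tails by a kit for little RNA, amplified and tagmented, with no record of strand, so genes overlapping on opposite strands can share reads. Per the submitters' processing notes, the authors used Salmon 1.8.0, GRCm39 and DESeq2. The deposited signal values are normalized counts with a column per library, and 6 columns of group means were not used. They are not whole reads, so no count test was run. limma 3.58.1 (R 4.3.3, lmFit and eBayes with trend, two-sided) was applied to log2(value + 1) for genes reaching 10 in 3 or more of the 6 libraries, with Benjamini-Hochberg adjustment over all genes tested, and was tested on simulated data. Figures and promoter matching used Python 3.11.15.

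The libraries and the 42 gene lists were chosen with earlier results of these data known, so lists carry counts and medians and no test. The lists hold 1009 distinct genes, of which 1008 are in the table and 929 were tested; 20 were matched by identifier. Genes were named by rule: the 12 largest differences each way among called, non-overlapping genes above 0 in every library whose higher group averaged 200 or more; the 10 highest means each way among called genes listed at 0 in the other group; up to 6 called members of each list in its main direction by mean and up to 4 in the other; the 8 highest means among genes whose 95% interval lies within -0.5 to 0.5; and a fixed set of cell type genes. The choices over the whole table skipped predicted genes, RIKEN clones and pseudogenes, and not every gene named by rule is described; a few are not reported here. Alternatives covered the pseudocount, the filter, scaling, the libraries in the fit, a replicate block, library weights, the variance prior and leaving out each library. Promoter windows are from RefSeq, GRCm38.p6.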

Additional observations from a re-analysis of the deposited data

Results flagged for a closer look

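Of the 150 genes named in the text that were called in cells with no overlap and were also tested in sEVs, 6 separated the microglia from the neuron libraries in opposite ways in cells and in sEVs, with no overlap in either. Over all genes meeting the same conditions, 330 of 10392 did so (3.18%), and the share among the named genes was 4%. Some of the named genes, Lif among them, were named after their values were seen, so the shares are not strictly comparable. The difference between the cell and sEV effects was not tested. Canx was higher in neuron cells, and in sEVs it read 27206, 20886 and 17484 for microglia and 11307, 11293 and 8315 for neurons (microglia minus neuron log2 difference 1.08). Chuk was also higher in neuron cells, and in sEVs it read 627, 926 and 440.1 for microglia and 293, 398 and 397 for neurons (0.82), which was not called in the sEV fit (limma adjusted p = 0.16), whereas the rest were called there. The others, Ftl1, Rest, Notch1 and Lif, were higher in microglia cells. In sEVs Ftl1 had a log2 difference of -1.46, and Rest read 1193, 1427 and 1058 for microglia and 2126, 2332 and 2830.04 for neurons (-0.99). Notch1, a receptor of progenitor cells, read 2509.6, 2765 and 2293 in microglia cells and 1097, 415 and 815 in neuron cells, and in sEVs 109.7, 10.2 and 198 and 1452, 1903 and 2604 (-4.95). Lif was listed at 0 in microglia sEVs and had a mean of 286 in neuron sEVs, and no fold is stated.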

How the results depend on the processing

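The number of genes called ranged from 10923 with a filter of at least 50 to 13639 with equal totals, against 12507, and was 13224 with no filter. Only quantile normalization moved the directional counts by over 1.5 times, to 5573 higher in microglia and 5548 higher in neurons, and 71.0% of the original calls kept their direction and call there, against 86.8 to 99.7% under the other alternatives. Leaving out each library in turn gave 11320 to 11919 calls, with 3308 to 3524 higher in microglia and 7886 to 8566 higher in neurons. After quantile normalization Pdia3 had a log2 difference of -0.65 and Hspa8 of -1.40, and at equal totals they had -0.087 and -0.47. The cause was not tested. The median of 5 lists changed sign: glycolysis under both scalings, immediate early genes and antioxidant enzymes at equal totals, cell cycle after quantile normalization, and endothelial and mural markers after quantile normalization and without microglia replicate 1. Deviations from the group mean correlated at 0.0027, -0.0053 and 0.044 between same-numbered libraries over 14437 genes. Between libraries of unlike number they correlated at -0.029 to 0.023. The labels do not say whether same-numbered libraries share a preparation, and correlations between 2 such different cell types cannot settle it. With the replicate number as a block, 12270 genes were called (3536 higher in microglia and 8734 in neurons) and 95.7% of the original calls were shared. Values without reads or lengths limit what zeros and small differences can show.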

Other observations

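Microglia replicate 1 stood apart from the other microglia libraries for 3 genes of the extracellular matrix, which were chosen after their values were seen. Dcn, the matrix proteoglycan decorin, read 21.8, 3035 and 5224 in the microglia libraries, so replicate 1 lay below all 3 neuron libraries, at 335, 207 and 371, and replicates 2 and 3 lay above them. Col1a2, a chain of type I collagen, read 50.3, 2236 and 3901 in microglia and 529, 188 and 834 in neurons, in the same arrangement. Fn1, fibronectin, read 490.2, 3533 and 5506 in microglia and 902, 681 and 1554 in neurons, again with replicate 1 below every neuron library. Gfap and Aqp4 went the opposite way among the same libraries, with replicate 1 highest. Postn, another matrix gene, did not follow this arrangement and read 12495, 13711 and 11021 in microglia. Whether the microglia cultures held different shares of other cells was not tested.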
